A study of Bos taurus with 48 samples.

Results

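The 72 genes described here code for proteins of the cytosolic ribosome. They are the genes on a bovine array whose name, or whose symbol in the probe description, begins with RPL or RPS and a number, or is one of RPLP0, RPLP1 and RPLP2. The rule matched 76 of the 21475 probes on the array. Of these, 2 probes carry the name RPS15A but a description of another gene, and 1 belongs to a binding protein of RPS19, and these 3 were set aside. The remaining 73 probes stand for 44 genes of the large subunit (RPL genes and the stalk genes) and 28 of the small subunit (RPS genes), and RPL15 has 2 probes. A further 5 probes of like-genes (RPL3L, RPL7L1, RPL26L1, RPL36AL and RPS27L) and the S6 kinases were left out by the rule. RefSeq gives a ribosomal protein symbol to 7 more probes that the array lists under other names, among them RPSA, which the array calls LAMR1, and these were not counted as members. All 72 genes were bright enough to be tested, beside 14644 other genes. In 69 of them the probes were well above background in all 96 channels.

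A ribosome joins a small subunit, which reads the mRNA, and a large subunit, which forms peptide bonds. Most of its proteins are needed in equal numbers, and the mRNAs of the ribosomal proteins begin with a terminal oligopyrimidine tract through which mTOR signalling sets their translation. In skeletal muscle, ribosome number sets the capacity for protein synthesis, and growing muscle makes ribosomes quickly. Muscle also has a paralog of its own, RPL3L, which can take the place of RPL3 near the peptidyl transferase centre of the large subunit.

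RNA came from longissimus muscle of cattle and was measured on 48 arrays of 2 colours, each with 1 sample in Cy3 and 1 in Cy5, in 26 conditions. In the developmental study, Piedmontese × Hereford animals, a cross bred for muscle, were set against Wagyu × Hereford animals, a cross bred for marbling. The ages were 60, 135 and 195 days of gestation and birth at 280 days, with 3 arrays each, and 3, 7, 12, 20, 25 and 30 months, with 4 arrays each. In the diet study, Belmont Red animals of a weight loss diet group (restricted) were set against those of a weight growth diet group (growth). Both groups were sampled at times 0, 1 and 2, with 4 arrays each. The authors describe nutritional deprivation and re-alimentation of adult animals, without saying which sampling fell in which phase. The labels give 35 animals. At 60 days there was 1 animal of each cross, repeated on 3 arrays. At 135 days there were 3 Piedmontese and 2 Wagyu crosses, at 195 days 2 and 3, and at birth 3 and 3. After birth 5 Piedmontese and 4 Wagyu crosses were sampled repeatedly, 6 of them at 12 months and 8 at each other age. Each diet had 4 animals at time 0. At time 1 there were 3 restricted and 4 growth animals, with 1 restricted animal on 2 arrays, and at time 2 there were 2 animals per diet. Each animal entered a test once per age or time, and the 3 to 20 month test kept the animal as a block, so the p-values measure the spread between animals, and the small number of arrays limits their precision.

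Values are log2 intensities of a probe after background correction and normalization, in which 1 unit is a doubling, and they compare samples for the same gene and not one gene with another. Between 49.9% and 76.4% of the spots of a channel were well above background, and no member was saturated. The prenatal and birth arrays lay on 3 slides, the arrays from 3 to 30 months on 6 others and the diet arrays on 3 more. One library stood apart: in the 135-day Piedmontese channel of array 2, the muscle actin ACTA1 was 10.02 against 16.73 to 17.93 in the other 5 channels of that age, the creatine kinase CKM was 8.78 against 12.74 to 13.89, and the adipocyte gene FABP4 was 16.56 against 9.03 to 11.63. Its label gives the same muscle as the others, and counts that include it are given with and without it.

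The probes are 60 bases long, and 24 of the 73 member probes (32.9%) held the polyadenylation hexamer AATAAA on the strand as listed, a share that was 11.9% over the 21256 probes of that length. On the reverse strand alone 1 member probe, that of RPS27, held it (as tttatt in the stretch shown), and the share of all probes with it on that strand was 3.91%. The match is a description of the probes, which the hexamer places near transcript ends only as far as its letters go. The stretches below are shown because the results turn on these genes. Between prenatal and post-natal animals RPL3 and RPL7 fell most, RPS27A and RPS27 rose, and RPL27 was among the few without a called difference. RPL3L is the paralog of RPL3. Capitals mark AATAAA on the listed strand.
RPL3: tggtagaacctcAATAAAattattttccag
RPL3L: catctggagaaggaaaagccggagacctcg
RPL7: gaaagcctatgtcacagacttttgtgcatg
RPS27A: tgtatattggttAATAAAgatatgagctaa
RPS27: cttttttattcagctatcatttctagggaa
RPL27: tcaatgttcttcacgatgaccgctttgcgt
The stretch is bases 28 to 57 of the RPL3 probe, 2 to 31 of the RPS27A probe and 31 to 60 of the others. The probes of RPL3 and RPL3L shared no run longer than 6 bases, and those of RPL7 and RPL7L1 also none over 6. The longest run shared by RPL22 and RPL22L1 was 9 bases. An open reading frame was found on the listed strand of 51 member probes, on the reverse strand alone of 19, RPL27, RPS27A, RPL36 and RPL22 among them, and on neither strand of 3 (RPL19, RPL23A and RPL37A). The RPL27 probe had its frame, and the RPS27 probe its hexamer, on the reverse strand alone. Whether such probes read the mRNA strand was not tested. Ribosomal protein genes have many processed pseudogenes, and whether a probe also binds these was not tested. The accession of the RPL36 probe leads to an unnamed locus in RefSeq, while 69 members have the same symbol there.

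Most of the 72 genes went from high levels in the fetus to low levels after birth. The median of the members, each gene taken relative to its own mean, was 0.76 and 0.77 in the 2 animals at 60 days, 0.66 to 0.88 (median 0.78) at 135 days, 0.41 to 0.55 (median 0.48) at 195 days and 0.23 to 0.42 (median 0.33) at birth. At 3 months it was -0.39 to -0.11 (median -0.29). From 7 to 30 months the medians of the ages lay between -0.32 and -0.22, and the single animals between -0.54 and -0.13. The animals before or at birth were all above all animals after birth, while the ages from 3 to 30 months overlapped. Of the 72 genes, 37 had their highest mean at 60 days, 24 at 135 days, 10 at birth and 1 at 3 months, and 22 had their lowest at 20 months and 17 at 25 months.

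**Figure D1:**
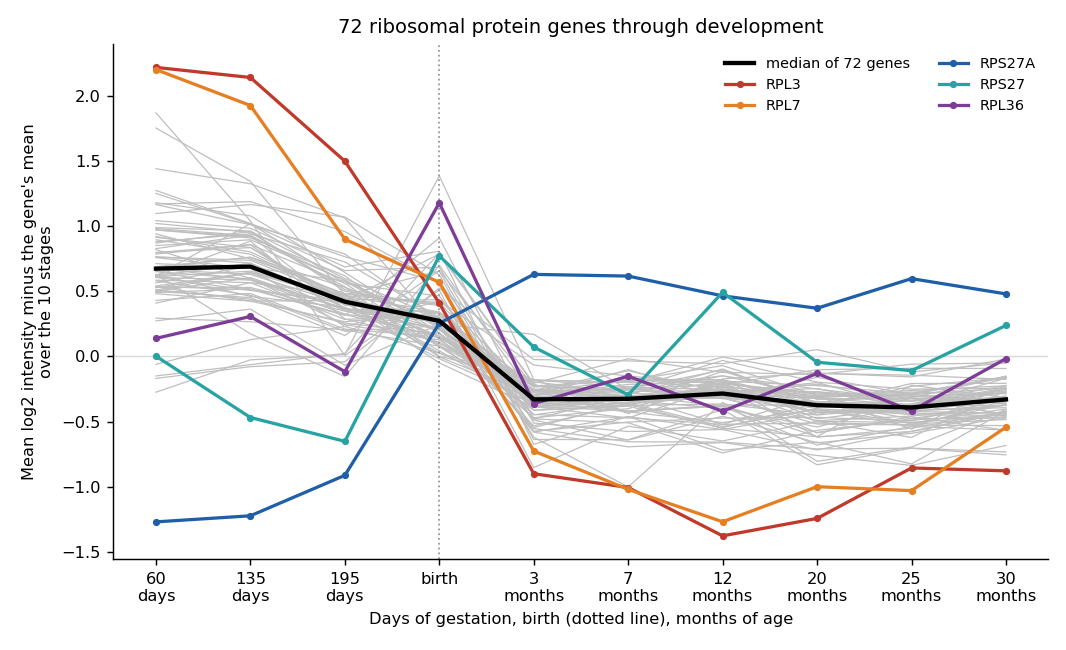
Mean log2 intensity of each of the 72 ribosomal protein genes at the 10 ages, minus the mean of that gene over the ages, with grey lines for single genes, a black line for their median and colours for 5 genes. The median falls across birth, RPL3 and RPL7 fall furthest, RPL36 and RPS27 peak at birth and RPS27A runs the other way.

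The genes differed in how much they varied. The SD of a gene over the 26 conditions ranged from 0.19 to 1.27 with a median of 0.44. It was highest for RPL3 (1.27), RPL7 (1.17) and RPL39 (0.86), which code for proteins of the large subunit, RPL39 lining the exit tunnel. It was lowest for RPLP1 (0.19), a protein of the stalk, RPL28 (0.19) and RPS2 (0.22).

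Between the 12 prenatal animals and the 9 post-natal animals (3 to 30 months), 68 of the 72 genes fell and 2 rose at an adjusted p under 0.05 (limma, Benjamini-Hochberg over all 14716 genes). In the same test 36.2% of all genes fell and 38.6% rose, while 94.4% of the members fell. The median difference of the members was -0.91 on the log2 scale, a fold of 1.88, against 0.02 for all genes. Each post-natal animal stands here as its mean over the ages sampled, so the post-natal ranges given for this comparison are ranges of such means. In 59 members every post-natal animal was below every prenatal animal, which held for 19.8% of all genes, and in 1 member (RPS27A) every post-natal animal was above. In a muscle biopsy, fewer cells of a type and less RNA per cell cannot be told apart. The subunits moved alike: 42 of the 44 large subunit genes fell (median -0.91), and 26 of the 28 small subunit genes fell (median -0.90).

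RPL3 had the largest fall. Its log2 intensity was 15.28 to 16.46 (median 15.80) in the prenatal animals and 12.74 to 13.01 (median 12.95) in the post-natal animals, with no overlap. The difference was -2.92 (SE 0.13, adjusted p = 3.7e-14, limma), a fold of 7.57. At single post-natal ages RPL3 ran more widely, from 12.15 at 20 months to 14.16 at 25 months, still below the prenatal animals. RPL7, another large subunit protein, lay at 11.72 to 13.60 (median 12.57) before birth and 9.84 to 10.14 (median 9.97) after it, a difference of -2.47 (SE 0.21, adjusted p = 4.85e-10, limma) and a fold of 5.52. RPL13A, which also acts outside the ribosome in silencing mRNAs, lay at 14.76 to 15.74 (median 15.42) and then at 13.27 to 13.88 (median 13.68), a difference of -1.77 (SE 0.11). The groups did not overlap in any of these 3 genes.

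In the small subunit, RPS4X fell most. This X-linked gene was at 15.51 to 15.97 (median 15.77) before birth and at 13.70 to 14.16 (median 13.87) after it, a difference of -1.88 (SE 0.07). RPS19, a protein needed to mature the small subunit and mutated in Diamond-Blackfan anaemia, went from 15.08 to 15.79 (median 15.30) before birth to 13.39 to 13.69 (median 13.53) after it, a difference of -1.77 (SE 0.07). RPS6, the protein that S6 kinase phosphorylates below mTOR, went from 17.02 to 17.72 (median 17.38) before birth to 15.92 to 16.25 (median 15.96) after it, a difference of -1.33 (SE 0.07). All 3 were called, and none had overlapping groups.

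The stalk genes fell less evenly. RPLP0, the base of the stalk that recruits elongation factors, lay at 17.15 to 17.71 (median 17.32) before birth and 16.40 to 16.72 (median 16.56) after it, a difference of -0.79 (SE 0.07). RPLP2 lay at 16.53 to 17.93 (median 16.83) and then 15.83 to 16.09 (median 15.95), a difference of -0.91 (SE 0.13), and neither gene had overlapping groups. RPLP1, its partner in the stalk dimers, overlapped: 15.11 to 15.75 (median 15.30) before birth and 14.80 to 15.28 (median 15.10) after it. Its difference of -0.29 (SE 0.09, adjusted p = 0.0044, limma) was called, but was -0.14 (adjusted p = 0.15, limma) without replicate 1 and turned to 0.54 with each channel centred on its own median, where RPLP0 (-0.01) and RPLP2 (-0.26) were not called.

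RPS27A went the other way. The gene makes a small subunit protein fused to ubiquitin, and its log2 intensity was 6.79 to 7.59 (median 7.25) before birth and 8.32 to 9.20 (median 8.94) after it, with no overlap. The rise was 1.65 (SE 0.11, adjusted p = 6.98e-12, limma), and it was 2.63 with background subtraction and 3.34 with processed signals. Where it was lowest the probe was also near background: 3 of 6 channels were well above it at 60 days, 5 of 6 at 135 days and all channels at later ages. At single post-natal ages RPS27A ran more widely, from 7.95 to 9.71, both at 30 months. The polyubiquitin gene UBB rose by 0.73 (adjusted p = 8.7e-06, limma), and FAU, a small subunit protein fused to a ubiquitin-like one, fell (-1.22). RPS27, a zinc finger protein of the small subunit, lay at 10.60 to 11.50 (median 10.96) before birth and 10.86 to 11.62 (median 11.50) after it, overlapping groups with a difference of 0.45 (SE 0.12, adjusted p = 0.0019, limma). RPL27 (-0.06) and RPL28 (0.02) were the members not called. Whether the probes of RPL27 and RPS27, with features on the reverse strand alone, read the mRNA was not tested.

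**Figure D2:**
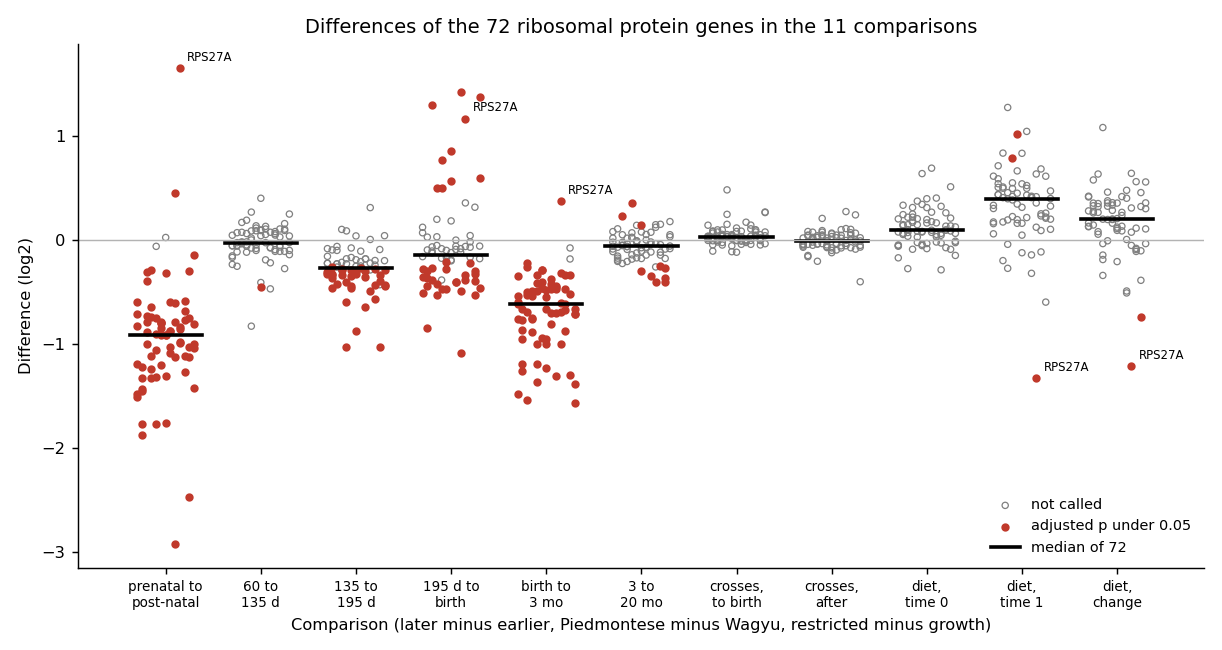
Log2 difference of each of the 72 genes (points) in each of 11 comparisons, red where the adjusted p was under 0.05 and open where it was not, with a bar at the median. Nearly all points are red and below 0 in the comparisons across birth, RPS27A is labelled where it was called, and no point is red between the crosses.

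The fall was present in each cross. In the Piedmontese crosses (5 post-natal and 6 prenatal animals) 69 genes were lower and 63 of them did not overlap, with a median difference of -1.01. In the Wagyu crosses (4 and 6) 70 were lower and 62 of them did not overlap, with a median of -0.82. The share of all genes was not counted within a cross, and over both crosses together 19.8% of all genes were lower without overlap. The Piedmontese counts include the 135-day library that stood apart. RPL3 differed by -3.12 and -2.71 and RPS27A by 1.79 and 1.49 in the Piedmontese and Wagyu crosses. Prenatal and post-natal arrays lay on different slides and were scanned in different sessions, so age and slide cannot be told apart. With slides as the units (6 against 3) 69 genes were called, and with scan sessions as the units (3 against 2) 68. Without the 135-day library that stood apart, 67 fell and 2 rose. With each channel centred on its own median, 34 fell and 3 rose, the members' median was -0.25 and that of all genes moved to 0.23, while RPL3 (-2.21), RPL7 (-2.17), RPS27A (1.77) and RPS27 (0.52) were called in the same direction.

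Markers of cell types moved over the same step. Of the marker genes tested, 9 of 10 of proliferating cells, 6 of 7 of fibroblasts, 4 of 4 of erythroid cells and 4 of 5 of endothelium fell, while 6 of 12 of muscle fibres and 5 of 6 of leukocytes rose, and 1 of 4 of adipocytes rose. The summed level of the proliferation markers, as log2, was 15.5 to 15.6 at 60 days, 13.9 to 14.3 at 195 days and 12.7 to 13.2 at 3 months. Their part in the fall of the ribosomal protein genes was not tested.

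From 60 to 135 days hardly any member differed. By limma 1 gene fell and 0 rose, against 6.64% and 6.20% of all genes, with 3 members at an unadjusted p under 0.05, and the members' median difference was -0.03, with 2 animals at 60 days. The gene was RPL15, a large subunit protein: 12.98 and 13.14 at 60 days, 12.40 to 12.86 (median 12.63) at 135 days, a difference of -0.46 (SE 0.15, adjusted p = 0.042, limma). The call rested on 1 of its 2 probes, which differed by -0.77 (adjusted p = 0.0012, limma), while the other differed by -0.14 (adjusted p = 0.75, limma). The call was lost without replicate 1 (adjusted p = 0.21) and with background subtraction, processed signals, each channel centred or the dye effect kept. RPL37A (12.32 and 12.50 against 11.31 to 11.77) differed by -0.83 (adjusted p = 0.054, limma) and was not called, and RPS6 (0.06), RPL3 (-0.08) and RPLP0 (-0.02) hardly differed. In 3 members every 135-day animal was higher and in 5 every one was lower, against 15.5% and 13.7% of all genes. Without replicate 2, 4 genes fell, with the slide as a block 3 did, and without the library that stood apart 2 did.

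Between 135 and 195 days, 35 genes fell and 0 rose, against 10.9% and 10% of all genes, with 47 members at an unadjusted p under 0.05. The members' median was -0.27 and that of all genes was near 0. The 35 were 24 of the large and 11 of the small subunit, and in 28 members every 195-day animal was below every 135-day animal, which held for 8.58% of all genes. RPL37A had 11.31 to 11.77 (median 11.63) at 135 days and 10.03 to 11.42 (median 10.39) at 195 days, overlapping groups that differed by -1.03 (SE 0.21, adjusted p = 0.0013, limma). RPL7 went from 12.56 to 13.60 (median 12.68) to 11.72 to 11.88 (median 11.85) with no overlap, also a difference of -1.03 (SE 0.14). RPL39 went from 12.32 to 12.74 (median 12.43) to 11.50 to 11.67 (median 11.61), a difference of -0.87 (SE 0.16). RPLP2 (-0.60, SE 0.14) and RPL3 (-0.64, SE 0.20, adjusted p = 0.026, limma) were called too. RPL3 was not called without the library that stood apart (-0.55, adjusted p = 0.066, limma), nor with quantile normalization, processed signals, each channel centred or without replicate 2 or 3, and RPLP2, which also lost its call with each channel centred, was -0.36 (adjusted p = 0.071, limma) without replicate 2. RPLP0 (-0.26), RPS6 (-0.22), RPLP1 (0.10) and RPS27A (0.31) were not called, but with the slide as a block RPLP0 was (-0.25, adjusted p = 0.023, limma). RPS27A was called with background subtraction (0.69, adjusted p = 0.023, limma) and with processed signals (1.24, adjusted p = 0.0057, limma). The count was 16 without replicate 1, 12 without replicate 2, 26 without the library that stood apart and 3 with each channel centred, where the members' median turned to 0.02.

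From 195 days to birth the members parted: 27 fell and 10 rose, against 30.5% and 34.8% of all genes. Those that rose were 7 large and 3 small subunit genes, and those that fell were 13 and 14. The members' median was -0.14 and that of all genes 0.05. In 6 members the newborn animals were all higher and in 21 all lower, against 24.9% and 22.9% of all genes. With each channel centred on its own median, 60 members rose and 0 fell, the members' median turned to 0.72 and that of all genes was 0.30, so a direction at this step is given relative to the scaling used.

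The largest rise was that of RPS27, from 10.60 to 10.99 (median 10.66) at 195 days to 11.63 to 12.64 (median 12.27) at birth, a difference of 1.42 (SE 0.17). RPL36 rose by 1.30 (SE 0.11) from 9.25 to 9.74 (median 9.55) to 10.48 to 10.97 (median 10.83). RPS27A rose by 1.17 (SE 0.14), which was 1.81 with background subtraction and 2.16 with processed signals. RPL15 rose by 0.85 (SE 0.11), from 11.95 to 12.53 (median 12.30) to 12.85 to 13.43 (median 13.13), and the 2 RPL15 probes by 0.61 and 1.10. None of these genes had overlapping groups. RPL27 (0.77), RPL22 (0.59), RPL28 (0.56), RPL36A (0.50) and RPL37A (0.50) were also among the 10. The strand limit of the RPL27 and RPS27 probes holds here too. The genes with their highest mean at birth included RPL15, RPL22, RPL27, RPL28, RPL36, RPL36A, RPLP1 and RPS27.

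At the same step RPL3 fell by 1.09 on the log2 scale (SE 0.19), from 15.28 to 15.60 (median 15.51) to 13.97 to 14.94 (median 14.21). RPS4X fell by 0.85 (SE 0.08) from 15.51 to 15.68 (median 15.56) to 14.54 to 14.93 (median 14.72), and neither gene had overlapping groups. RPS20 (-0.53, SE 0.10), RPS29 (-0.53, SE 0.09), RPL8 (-0.51, SE 0.12) and RPS6 (-0.42) were lower too, and with each channel centred the differences of RPS4X, RPS20, RPS29, RPL8 and RPS6 turned to 0.12, 0.46, 0.45, 0.45 and 0.59. RPL3 kept its sign there, at -0.18, but was not called. The call of RPL8 was also lost without replicate 2 (adjusted p = 0.080, limma). The stalk genes RPLP0 (-0.11), RPLP1 (0.20) and RPLP2 (-0.18) were not called, but with each channel centred they were, at 0.84, 1.23 and 0.74. Over this step the summed proliferation markers went from 13.9 to 14.3 at 195 days to 12.3 to 12.6 at birth, the fibroblast markers from 17.0 to 17.8 to 14.3 to 15.4 and the erythroid markers from 16.7 to 17.8 to 11.1 to 12.1, and their part in these differences was not tested.

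From birth to 3 months 69 members fell and 1 rose, against 23.8% and 22.4% of all genes. The members' median was -0.62, a fold of 1.54, and that of all genes -0.02, and in 51 members every 3-month animal was below every newborn, against 7.98% of all genes. The large subunit genes had a median of -0.70 with 43 of 44 called lower, and the small subunit genes a median of -0.51 with 26 of 28. RPL36 fell by 1.54 on the log2 scale (SE 0.09), to 9.02 to 9.44 (median 9.27), after its rise of the step before. RPL35 (-1.48, SE 0.08) and RPL22 (-1.39, SE 0.17) followed. RPL22, whose paralog is RPL22L1, went from 8.74 to 9.80 (median 9.53) to 7.59 to 8.58 (median 7.96). RPL37A fell by 1.36 (SE 0.18), RPL3 by 1.31 (SE 0.17), RPS6 by 0.75, RPLP0 by 0.50, RPLP1 by 0.49 and RPLP2 by 0.41.

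RPS27A rose at this step too, by 0.38 (SE 0.12, adjusted p = 0.014, limma), from 8.12 to 9.16 (median 8.55) to 8.68 to 9.18 (median 8.92), and the groups overlapped. Without replicate 3 the value was 0.19 (adjusted p = 0.25, limma), and the call was also lost without replicate 1 (adjusted p = 0.076) and with each channel centred (adjusted p = 0.15). With processed signals the rise was 0.65. RPS29 (-0.18) and RPL32 (-0.08) were not called. Newborns and 3-month animals lay on different slides, so age and slide cannot be told apart. With slides as the units (4 against 3) 63 members were called and the adjusted p of RPS27A was 0.072. With scan sessions as the units (2 against 2) 60 were called and that p was 0.044 (limma). Here 8 of 10 proliferation markers, 5 of 7 fibroblast markers and 5 of 6 leukocyte markers rose, and their part in the fall was not tested.

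**Figure D3:**
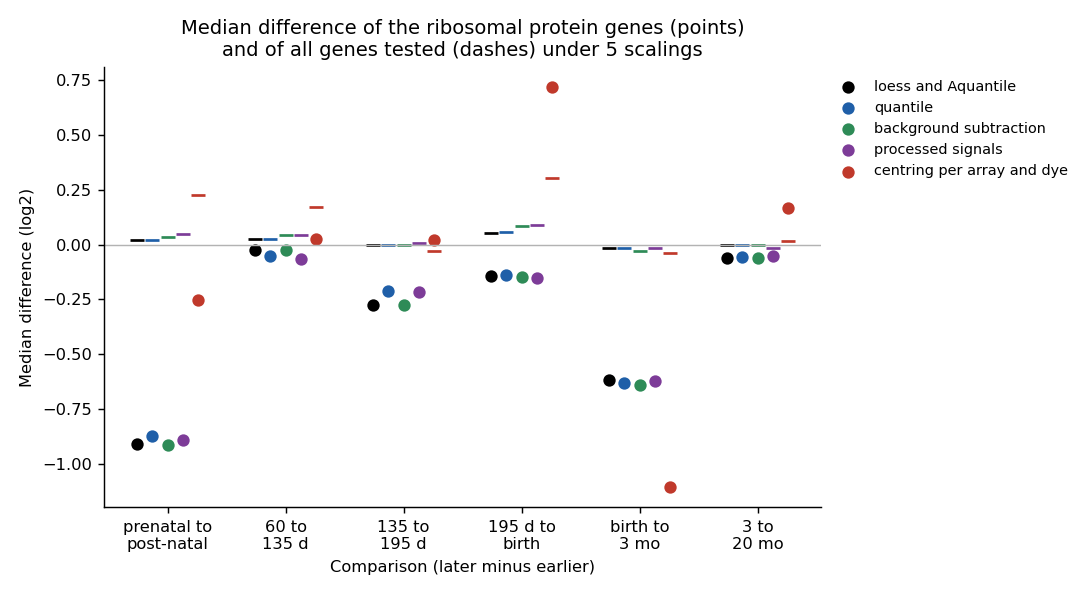
Median log2 difference of the 72 genes (points) and of all genes tested (dashes) in the 6 developmental comparisons under 5 scalings of the arrays, by colour. The points lie together under 4 scalings, and centring each channel moves them most, above 0 from 195 days to birth (0.72) and further below 0 from birth to 3 months (-1.11).

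RPL3 and its muscle paralog RPL3L ran in opposite directions. RPL3L was 6.89 and 6.93 at 60 days, where 1 of 6 channels was well above background, 7.17 to 10.14 (median 9.16) at 135 days, 13.10 to 13.78 (median 13.36) at 195 days, 13.91 to 14.49 (median 14.28) at birth and 13.99 to 14.97 (median 14.58) at 3 months. It rose by 2.12 from 60 to 135 days, a value that was 3.63 with background subtraction and 5.02 with processed signals, by 4.38 from 135 to 195 days and by 0.85 to birth (adjusted p = 0.020, limma). The last call was lost with processed signals and without replicate 1 or 3, and its difference of 0.29 to 3 months was not called. The lowest RPL3L value at 135 days was that of the library that stood apart, which also had the highest RPL3 of that age, 16.46 against 15.65 to 16.31. RPL3 was 15.99 and 16.35 at 60 days and 15.65 to 16.46 (median 16.10) at 135 days. It was 12.55 to 13.63 (median 13.09) at 3 months, 12.40 to 12.71 (median 12.63) at 12 months and 12.67 to 13.73 (median 13.02) at 30 months. The main rise of RPL3L thus lay before 195 days, while RPL3 had its largest falls from 195 days to 3 months. Between prenatal and post-natal animals RPL3L differed by 3.95 (SE 0.88, adjusted p = 0.00039, limma).

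**Figure D4:**
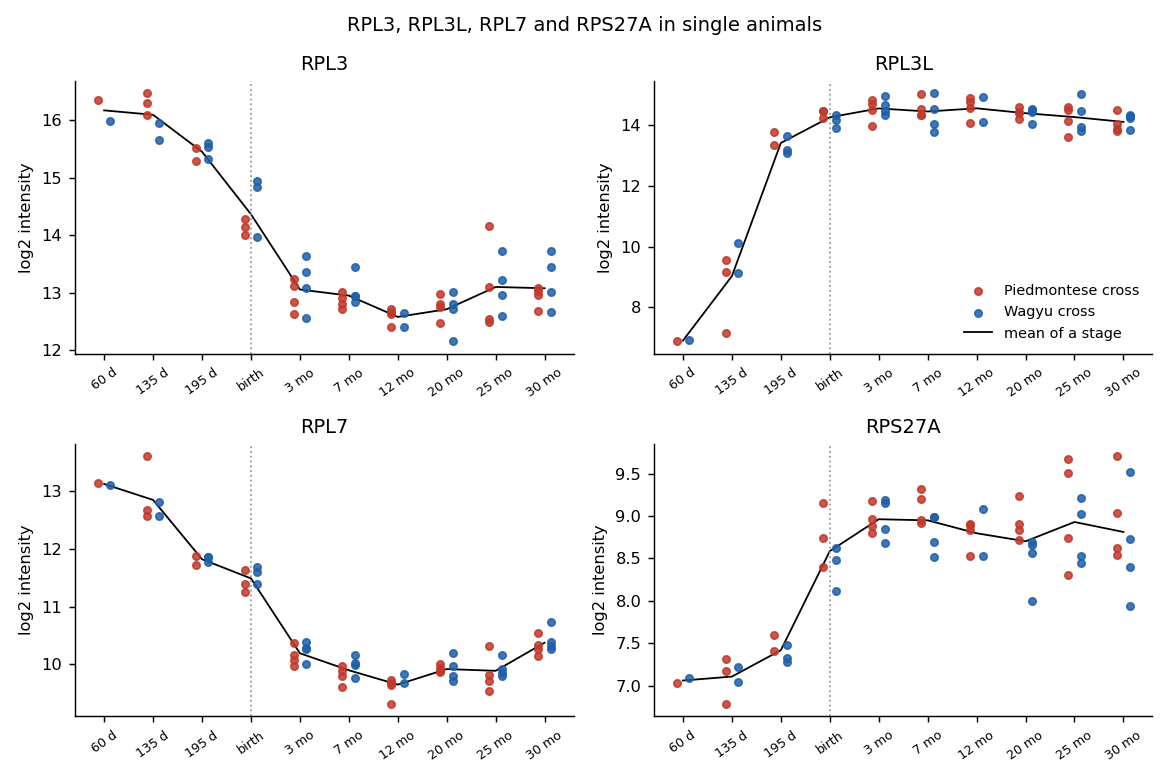
Log2 intensity of RPL3, RPL3L, RPL7 and RPS27A in single animals (points, red for Piedmontese and blue for Wagyu crosses) at the 10 ages, with a line through the mean of each age. RPL3 and RPL7 step down and RPL3L and RPS27A step up with age, and the crosses lie among each other.

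After 3 months the levels moved little. In the 8 animals measured at both 3 and 20 months, 7 members fell and 3 rose, against 14.5% and 14.2% of all genes, with the animal as a block, and in 0 members did the ages separate without overlap. The members' median was -0.06 and that of all genes was near 0. RPS29, a zinc finger protein of the small subunit, fell by 0.41 (SE 0.08, adjusted p = 0.0031, limma), RPL32 by 0.37, RPL3 by 0.34, RPS9 by 0.30, RPL7 by 0.27 and RPS15A by 0.25. RPL3 was not called without replicate 2, 3 or 4, RPL32 without replicate 1 or 4, and RPS9 without replicate 1. RPL37A, RPL36 and RPL15 rose by 0.36, 0.23 and 0.14, and all 3 calls were lost without replicate 1 or 4. The probes of RPL15 differed by 0.28 (adjusted p = 0.0020, limma) and by 0.0021 (adjusted p = 0.98, limma). Without the replicate block RPL37A, RPL15 and RPL3 were not called (adjusted p = 0.087, 0.10 and 0.12, limma). RPS27A differed by -0.26 (adjusted p = 0.078, limma) and was called without replicate 3 (-0.33) and with processed signals (-0.47). The same animal deviated together at the 2 ages over all genes (correlation 0.15 to 0.49, median 0.36), and without the replicate block 6 members were called. The count was 4 without replicate 1, 6 without replicate 2, 3 without replicate 4 and 0 with each channel centred, where the members' median turned to 0.17.

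The ages from 25 to 30 months, on slides of their own, are given without a test. RPL7 was 9.98 to 10.39 (median 10.22) at 3 months, 9.32 to 9.84 (median 9.69) at 12 months and 10.15 to 10.74 (median 10.33) at 30 months, so the 12-month animals lay below all animals of both other ages. RPS27A was 8.30 to 9.67 (median 8.88) at 25 months and 7.95 to 9.71 (median 8.68) at 30 months, with overlapping animals.

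No member was called between the crosses. Before and at birth (9 and 9 animals, stage in the fit) limma called 0 of 72 members and 0% of all genes in either direction, and at an unadjusted p under 0.05 it counted 1 member, RPL13A (0.48, Piedmontese minus Wagyu), and 611 of all genes. After birth (5 and 4 animals) it again called 0 members and 0% of all genes, and the 4 members at an unadjusted p under 0.05, of 779 genes, were RPL22 (-0.40), RPL32 (0.24), RPL9 (-0.16) and RPS6 (-0.21). The members' median difference was 0.03 before and at birth and -0.01 after it. RPL3 differed by 0.00 (SE 0.15) and by -0.08 (SE 0.06), and RPS27A by 0.14 (SE 0.11) and 0.27 (SE 0.14).

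The diets were compared first at time 0 (4 animals each). No member was called by limma, against 0.530% of all genes higher and 0.482% lower in the restricted animals. At an unadjusted p under 0.05 there were 5 members, of 2316 genes: RPS23 (0.34), RPL32 (0.51), RPL36 (-0.28), RPL13A (0.37) and RPS27 (0.40). The median of the members was -0.32, -0.27, -0.08 and 0.04 in the restricted animals and -0.36, -0.33, -0.32 and -0.05 in the growth animals, so the diets overlapped.

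At time 1, with 3 restricted and 4 growth animals, 2 members were higher and 1 lower in the restricted animals, against 7.05% and 6.84% of all genes. The median of the members was -0.31, 0.08 and 0.31 in the restricted animals and -0.75, -0.39, -0.10 and -0.10 in the growth animals, which overlapped. The median difference was 0.39, while that of all genes was near 0. In 9 members every restricted animal was higher and in 2 every one was lower, against 15.1% and 14.4% of all genes, and 17 members had an unadjusted p under 0.05. The SE of the members had a median of 0.23 here and 0.08 between prenatal and post-natal animals.

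RPS27A was the gene that was lower. Its log2 intensity at time 1 was 7.00, 7.06 and 7.38 in the restricted animals and 8.16, 8.22, 8.43 and 9.10 in the growth animals, with no overlap. The difference was -1.33 (SE 0.24, adjusted p = 0.015, limma), and -2.16 with processed signals. At time 0 the restricted animals had 7.41, 7.75, 8.01 and 8.50 and the growth animals 8.09, 8.18, 8.23 and 8.31, which overlapped. At time 2 the 2 restricted animals had 8.17 and 8.46 and the 2 growth animals 7.88 and 7.95, without a test. The restricted animals were thus lowest at time 1 and above the growth animals at time 2. The authors' account does not place time 2 in the deprivation or the re-alimentation. The change from time 0 to time 1 was -0.94 in the restricted and 0.27 in the growth animals, a difference of -1.21 (SE 0.23, adjusted p = 0.025, limma), a call that was lost with quantile normalization and without replicate 1, 2 or 4. Without replicate 4, the difference at time 1 was -1.39 and its adjusted p was 0.080.

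RPL27A and RPL37A, both of the large subunit, were the genes that were higher at time 1. RPL27A had 15.90, 16.31 and 16.44 in the restricted animals and 14.70, 15.01, 15.40 and 15.66 in the growth animals, a difference of 1.02 (SE 0.25, adjusted p = 0.034, limma). RPL37A had 9.78, 10.10 and 10.57 against 9.18, 9.35, 9.39 and 9.55, a difference of 0.78 (SE 0.19, adjusted p = 0.035, limma). Neither overlapped. Without the filter on dim probes their adjusted p values were 0.054 and 0.051, and both calls were lost without replicate 1, 3 or 4, and that of RPL37A also without replicate 2. RPS20, with 16.63, 16.75 and 16.96 against 14.41, 15.07, 16.24 and 16.30, differed most (1.27) without being called (adjusted p = 0.10, limma). The count of calls at time 1 was 13 with quantile normalization, 10 from the scanner's processed signals, 9 with each channel centred, 1 without the removal of the dye effect or the filter, 1 without replicate 1 or 3, and 0 without replicate 4.

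For the change from time 0 to time 1, 2 members fell and 0 rose in the restricted relative to the growth animals, against 4.35% and 4.15% of all genes, with a members' median of 0.20 and 7 members at an unadjusted p under 0.05. Beside RPS27A, the gene was RPL7 (-0.74, SE 0.18, adjusted p = 0.046, limma), whose call was lost whichever replicate was left out (adjusted p from 0.091 to 0.16). At time 1 RPL7 had 9.44, 9.59 and 9.59 in the restricted animals and 9.63, 10.01, 10.40 and 10.52 in the growth animals, which did not overlap but gave an adjusted p of 0.10 (limma). Without replicate 3, 1 member was called for the change, and without replicate 1, 2 or 4, none was (limma, 0 at the adjusted threshold). RPL3 (-0.14), RPS6 (-0.27), RPLP0 (0.50), RPLP1 (-0.04) and RPLP2 (0.42) were not called at time 1. RPL3L was 15.06, 15.39 and 15.65 in the restricted and 14.43, 14.56, 14.63 and 15.22 in the growth animals (0.66, adjusted p = 0.088, limma), and its change differed by 1.02 (SE 0.19, adjusted p = 0.024, limma), a call lost with processed signals and without replicate 1, 2 or 4. At time 1 RPL3L was called with each channel centred and without replicate 1, and RPLP2 with quantile normalization or processed signals.

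Other genes set the restricted animals of time 1 apart more widely. ACTA1 was 11.68 to 11.85 in them and 17.32 to 18.49 in the growth animals, a difference of -6.16, and the collagen gene COL3A1 differed by -4.48. Of the muscle fibre markers 7 of 12 were lower and 1 higher, with a summed log2 level of 19.33 to 19.86 against 20.40 to 21.35, and of the fibroblast markers 6 of 7 were lower, with 12.38 to 13.06 against 15.17 to 17.07. Of the proliferation markers 6 of 10 were lower and 1 higher. Of the endothelium markers 2 of 5 were lower, and of the leukocyte markers 1 of 6. No adipocyte or erythroid marker was called. The part of the markers in the differences of the ribosomal protein genes was not tested.

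RPL4, a protein of the exit tunnel, had a pattern of its own in the diet study. In 2 of the 4 growth animals it lay at 11.48 to 12.00 at every sampling, whereas the other 78 values of an animal at an age or time, diet and development together, lay at 13.21 to 15.29. Its difference at time 1 of 1.04 (SE 0.52) was not called.

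Other genes of the translation machinery were described from lists for the same comparisons. Between prenatal and post-natal animals, where 38.6% of all genes rose and 36.2% fell, 13 of 18 other genes with terminal oligopyrimidine mRNAs fell and 4 rose (median -0.98), the nucleosome assembly protein NAP1L1 (-1.78) and the nucleolar NPM1 (-1.64) most, while the tumour protein TPT1 rose (0.82). Of 7 elongation factors 4 fell and 3 rose (median -0.47, which turned to 0.17 with each channel centred): EEF1A1, which brings aminoacyl-tRNA to the ribosome, fell by 2.47 on the log2 scale, while its muscle and nerve isoform EEF1A2 rose by 5.39, with 5 of 6 channels well above background at 60 days and 3 of 6 at 135 days. Of 26 initiation factors 18 rose and 7 fell (median 0.48), EIF3J (1.63) and EIF1 (1.52) against EIF3E (-1.13) and EIF4A1 (-1.04). Of 39 ribosome biogenesis genes 16 rose and 16 fell (median 0.01), shares near those of all genes, such as SBDS (1.54), which releases EIF6 from the large subunit, and UBTF (-0.97), a factor of RNA polymerase I. Of 16 genes of mTOR and growth control 11 rose and 5 fell, EIF4EBP2 (1.82) and MLST8 (1.38) against MYCN (-1.91) and MYC (-1.27). With each channel centred, 9 of the 18 genes with oligopyrimidine mRNAs fell and 4 rose (median -0.31).

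Across birth the ribosome biogenesis genes rose and then fell. From 195 days to birth 30 of 39 rose and 1 fell (median 0.87), against 34.8% and 30.5% of all genes, RRS1 (2.12) and GNL3 (2.08) most and UBTF (-1.21) falling, and from birth to 3 months 33 fell and 1 rose (median -0.93), against 23.8% and 22.4% of all genes, RRS1 by 1.71 on the log2 scale and GNL3 by 1.57. MYC, which drives the transcription of these genes, rose by 2.59 and then fell by 2.04. Of the initiation factors 19 rose and 1 fell to birth and 14 fell and 3 rose after it. The genes with terminal oligopyrimidine mRNAs had 5 higher and 4 lower to birth and 12 lower and 1 higher after it, and of the 6 like-genes of ribosomal proteins 5 rose and 0 fell to birth. Between 135 and 195 days 8 of the 18 genes with such mRNAs fell and 0 rose, against 10.9% and 10% of all genes, NPM1 (-0.83) and NAP1L1 (-0.79) most. With each channel centred, the biogenesis genes had 34 higher and 1 lower to birth and 31 lower and 0 higher after it, and the genes with oligopyrimidine mRNAs 11 higher and 2 lower to birth. Between the crosses no gene of these lists was called by limma. In the restricted animals at time 1, where 7.05% of all genes were higher and 6.84% lower, 7 of 26 initiation factors were higher and 1 lower, EIF4H (1.26) against EIF5 (-0.59), 4 of 39 biogenesis genes were higher and 0 lower, and EIF4EBP1 (1.70), a repressor of initiation that mTOR inactivates, and TSC2 (0.70) were higher. For the change from time 0, 7 of 39 biogenesis genes were higher, against 4.15% of all genes, POLR1A (1.19) and PES1 (1.08) among them, and MYC (2.96).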

How the data were processed

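The 48 arrays held longissimus RNA of 35 animals, each array with 1 sample per dye. The authors scanned the arrays with Agilent Feature Extraction 9.5.1 (per the labels) and deposited, per spot, the mean intensity and median background of each channel, without normalization, along with log10 ratios of Cy5 over Cy3, which were not used. The authors' own mixed model values per condition were not used either. Intensities were background-corrected by normexp (offset 50) in limma 3.58.1 (R 4.3.3), without control or outlier spots, and normalized by loess within arrays and Aquantile between arrays. Processed signal intensities, which the authors deposited too, served as an alternative. Probes of a gene were averaged, and a gene was tested when well above background in at least 24 of 96 channels. Gene-wise dye effects were subtracted, and the channels of an animal at an age were averaged. In the tests over all post-natal ages the channels of all ages of an animal were averaged. Then lmFit and eBayes gave two-sided p values, adjusted over 14716 genes by Benjamini-Hochberg with a threshold of 0.05. Normalization sets the overall intensity of the arrays alike, so every difference is relative to the other genes.

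The members and gene lists were chosen with earlier results of these data known. The genes named with values are up to 5 called members with the largest rise and fall in a comparison, RPLP0, RPLP1, RPLP2, RPS6, RPL3 and RPS27A, the 3 members with the largest and the 3 with the smallest SD, RPL3L, and up to 2 called genes of a list in each direction. Others were named after their values were seen, and some that the rule selects are not reported here. Symbols were set against the RefSeq gene table of a bovine assembly, for names only. Animal codes that differ by a letter were counted as separate animals. The scripts were tested on simulated data. The alternatives were centring per array and dye, quantile normalization, background subtraction, processed signals, other filters, the brightest probe, the dye effect kept, slide, array and animal blocks, and each replicate left out. Slide and session means and the omission of 1 library were chosen after seeing the data. The animal pairs the 3- and 20-month samples. The samples on 1 array came from different animals. Before and at birth the partners on every array deviated together (correlations 0.16 to 0.42), at the later ages they had correlations of -0.28 to 0.67, and at diet times 0 and 1 of -0.20 to 0.29. With the array as replicate block 0 members were called between the crosses, as without it.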

Additional observations from a re-analysis of the deposited data

Results flagged for a closer look

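The members' median, RPL3, RPL3L, RPS27A, RPL7 and RPL4 were each checked in the same groups of 4 to 10 animals. In 4 of these 72 checks a single animal lay far from the rest. Chance alone gives about 1 in 20 checks, which is close to the share found. The median of the ribosomal protein genes was -0.049 in 1 growth animal at diet time 0 and -0.36 to -0.32 in the other 3. RPL3 was 13.45 in 1 animal at 7 months, with the next at 13.01 and the lowest at 12.71. RPL7 was 13.60 in 1 animal at 135 days, with the next at 12.82 and the lowest at 12.56. RPL4 was 14.18 in 1 animal at 7 months, with the next at 13.87 and the lowest at 13.68. The diet difference itself changed from time 0 to time 1 in 3 genes by the test of the change: RPS27A (-1.21), RPL7 (-0.74) and RPL3L (1.02).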

How the results depend on the processing

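Centring each array and dye on its own median moved the results most. It called 37 members between prenatal and post-natal animals in place of 70, 0 from 60 to 135 days and from 3 to 20 months, 3 from 135 to 195 days, 60 from 195 days to birth in place of 37, and 9 at diet time 1. The members' median became -0.25 between prenatal and post-natal animals and -1.11 from birth to 3 months, and turned to 0.022 from 135 to 195 days, 0.72 to birth and 0.17 from 3 to 20 months. Reversed genes were RPLP1 between prenatal and post-natal animals (0.54) and, to birth, RPS4X (0.12), RPS20 (0.46), RPS29 (0.45), RPL8 (0.45) and RPS6 (0.59). The median of all genes moved to 0.23 between prenatal and post-natal animals, 0.17 from 60 to 135 days and 0.30 to birth. The cause was not tested. From 60 to 135 days the call was lost with background subtraction and processed signals (0), and there were 2 with probes above background in all channels or without the 135-day library and 3 with the slide as a block. Processed signals gave 18 calls from 135 to 195 days. At diet time 1 there were 13 calls with quantile normalization, 10 with processed signals and 1 without a filter, with the dye effect kept or with the array as replicate block. The change had 1 call under background subtraction, processed signals, no filter, all channels, the dye effect kept and without array 3 of time 1. Without the replicate block of the animal, 6 members were called from 3 to 20 months. With a replicate left out, the counts were 66 to 71 between prenatal and post-natal animals, 1 to 4 from 60 to 135 days, 12 to 31 from 135 to 195 days, 29 to 33 to birth, 66 to 70 to 3 months, 3 to 7 to 20 months, 0 to 2 at diet time 1, 0 to 1 for the change, and 0 for the crosses and diet time 0. Depth on an array is signal over background, whose median per channel was 1.89 to 5.90, and it limits RPS27A and RPL3L in the early fetus.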
